A study of Mus musculus with 8 samples.

Results

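Prdm13, Skor1, Ebf1, Ebf2 and Ebf3 are 5 genes of transcriptional regulators that were read on arrays of neurons from 3 mouse hypothalamic nuclei. They were taken by gene name, and they make up 5 of the 34836 gene names and 6 of the 55681 probes of the array, with 2 probes for Skor1 and 1 for each other gene. They were chosen by their levels on these arrays, in the contrast of the dorsomedial nucleus with the others, so the values of these 5 genes in the dorsomedial nucleus against the other nuclei are given as a description, with no test of their own; tests of that contrast are given for other genes.

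The neurons came from the dorsomedial nucleus (DMH, 3 arrays), the ventromedial nucleus (VMH, 3 arrays) and the arcuate nucleus (Arc, 2 arrays) of 2-month-old female Nkx2-1-CreERT2 x Rosa-ZsGreen mice given tamoxifen. In all groups the green ZsGreen protein marked cells in which the Nkx2-1 gene, a homeobox gene of the ventral forebrain, drove the inducible Cre, and marked neurons were collected by laser microdissection into pools. The question was which genes are enriched in the marked neurons of each nucleus. All samples were marked and given tamoxifen alike. The labels do not tie samples to animals, so a p-value here covers the spread among these samples only, some of which may be technical, and is too small if samples of a nucleus share an animal. In pooled cells, fewer cells of a type and less RNA per cell cannot be told apart.

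Prdm13 belongs to the PR-domain zinc finger family. In the embryonic mouse spinal cord it acts downstream of Ptf1a and favours inhibitory over excitatory neuron fates, and in the adult mouse DMH it has been linked to sleep. Skor1, also called Corl1, is a corepressor of the Ski and Sno family that was found as a partner of the homeobox factor Lbx1. Ebf1, Ebf2 and Ebf3 are early B cell factors, DNA-binding proteins with a helix-loop-helix dimerisation domain that act in B cells and in neuronal differentiation. The zinc finger proteins Zfp423 and Zfp521 bind Ebf proteins and can hold back their activity.

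Each level reported here rests on 1 or 2 probes of 60 bases, so the second part of each probe, bases 31 to 60 from its 5′ end, is shown first, 5′ to 3′ as the files give it. Capitals mark the letters AATAAA, the canonical polyadenylation signal, searched in the sense of the probe over all 60 bases.
Prdm13: aagaatAATAAAgatacaaaggagagttct
Skor1, brighter probe: ccgtgacttttgtttttAATAAAaagaaaa
Skor1, other probe: aactgactcacgagatggcgaccatcttga
Ebf3: ctgtcagagaccctacaataagattgtttt
Ebf1: tatctgggggatatatttattctgtattga
Ebf2: agtctttgactgtttcctttctatgcagag
The signal stood in the probe of Prdm13 (first base 37) and in the brighter probe of Skor1 (first base 48), and in 5602 of all 55681 probes (10.1%). Over the full 60 bases, the longest run of letters shared by probes of different Ebf genes, Ebf4 included, was 5 to 8 bases in the 9 pairs compared. The 2 probes of Skor1 overlap by 8 bases and therefore read almost the same end of the transcript.

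In mm9, the build of the array's annotation, the Prdm13 probe lies on the minus strand at chr4:21604628-21604687. The Skor1 probes lie on the minus strand at chr9:62985992-62986051 for the brighter one and chr9:62986044-62986103 for the other. The Ebf3 probe lies on the minus strand at chr7:144385490-144385549, the Ebf1 probe on the plus strand at chr11:44818438-44818497 and the Ebf2 probe on the plus strand at chr14:68048145-68048204. Whether a probe lies in a coding or untranslated exon was not worked out, because no annotation of that build was used.

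A level here is the log2 of the scanner's processed signal minus the 75th percentile of the array's signals, so that 0 is the 75th percentile of that array. The scanner software also marks each spot as well above background or not, and replaces some dim signals with a surrogate, so dim spots have no order among themselves. Levels are compared between arrays for the same probe. The exceptions are the choice of the brightest probe of a gene or list and the summed levels of marker lists, which lean to the brightest probes.

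Prdm13 was bright on every DMH array, with levels of 1.29, 0.51 and 0.95. It was not well above background on any VMH array, where levels were -4.50, -6.17 and -4.27, the second of them a surrogate. On the Arc arrays it was a surrogate in replicate 1 (-6.14) and well above background in replicate 2 (-3.37). The lowest DMH array lay 3.88 above the highest other array, Arc replicate 2, so DMH did not overlap the others, and Arc replicate 2 was the only array outside DMH with a detected Prdm13 signal. In processed signal, the DMH arrays read 7440, 3300 and 4060, the VMH arrays 90.0, 26.0 and 102 and the Arc arrays 25.8 and 174.

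The mean level of Prdm13 was 0.92 ± 0.39 in DMH (SD, n = 3), -4.98 ± 1.03 in VMH (SD, n = 3) and -4.76 ± 1.96 in Arc (SD, n = 2). Because most of the lower values were dim, the fold was bounded by setting each dim array to the lowest signal that was well above background on it, or to its own value where that was higher. On that count Prdm13 was at least 35.6-fold higher in DMH than in VMH and at least 24.0-fold higher than in Arc. Bounds of this kind, here and below, hold for the background correction used, and differences were smaller under another one. DMH was highest, and VMH and Arc, with 4 of their 5 spots dim, have no order between them.

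Skor1 was bright in DMH on both of its probes. The brighter probe read 1.39, 0.29 and 1.35 on the DMH arrays, -4.67, -3.90 and -6.19 in the VMH replicates and -4.15 and -4.78 in the Arc replicates, and it was well above background on the 3 DMH arrays and on no other. The lowest DMH array, replicate 2, lay 4.19 above the highest of the others. The mean level was 1.01 ± 0.62 in DMH (SD, n = 3), -4.92 ± 1.17 in VMH (SD, n = 3) and -4.46 ± 0.44 in Arc (SD, n = 2). Skor1 was at least 36.9-fold higher in DMH than in VMH and at least 32.4-fold higher than in Arc.

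The other Skor1 probe read 0.76, 0.28 and 1.17 on the DMH arrays, -4.96, -6.19 and -5.85 in the VMH replicates and -5.03 and -3.68 in the Arc replicates. Here, too, the DMH arrays lay clear of the rest, but Arc replicate 2 was well above background, as it was for Prdm13. By this probe Skor1 was at least 32.1-fold higher in DMH than in VMH and at least 23.6-fold higher than in Arc. Both probes thus gave bounds of like size, and they parted only over Arc replicate 2, where the brighter probe was not well above background.

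Ebf3 had a narrower spread over the DMH arrays than Prdm13 or Skor1. It read -1.31, -0.93 and -0.73 on the DMH arrays, all well above background. On the VMH arrays it read -6.36, -6.23 and -6.27 and on the Arc arrays -6.22 and -6.20, and all 5 were surrogates, so their tight spread is that of the software's substitute and not of a measured signal. The lowest DMH array lay 4.89 above the highest of the others. The mean level was -0.99 ± 0.30 in DMH (SD, n = 3), against -6.29 ± 0.06 in VMH (SD, n = 3) and -6.21 ± 0.02 in Arc (SD, n = 2), and Ebf3 was at least 9.72-fold higher in DMH than in VMH and at least 8.12-fold higher than in Arc. Arc replicate 2, which gave a signal for Prdm13 and for a Skor1 probe, gave none for Ebf3.

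Ebf1 was detected in all 3 nuclei. It read -2.67, -2.58 and -2.44 on the DMH arrays, -2.81, -3.69 and -1.96 in the VMH replicates and -2.78 and -3.32 in the Arc replicates, and all 8 spots were well above background. The highest and the lowest array both belonged to VMH, which overlapped DMH and Arc, and the lowest DMH array lay just above the higher Arc array. The mean level was -2.56 ± 0.12 in DMH (SD, n = 3), -2.82 ± 0.87 in VMH (SD, n = 3) and -3.05 ± 0.38 in Arc (SD, n = 2), which makes DMH 1.20-fold higher than VMH and 1.40-fold higher than Arc, both less than the SD between VMH arrays.

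Ebf2 was not well above background on any DMH array, where it read -6.08, -4.78 and -4.78. It was well above background on VMH replicate 3 (-3.92) and Arc replicate 2 (-3.20), and not on the other VMH arrays (-5.07 and -5.92) or Arc replicate 1 (-5.11). It therefore missed the filter, which asked for detection on every array of at least 1 nucleus, and it entered no fit. No fold is given for it. The genes Ebf1, Ebf2 and Ebf3 thus had 3 different patterns: detected in every nucleus, detected on single arrays outside DMH, and detected on the DMH arrays alone.

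**Figure D1:**
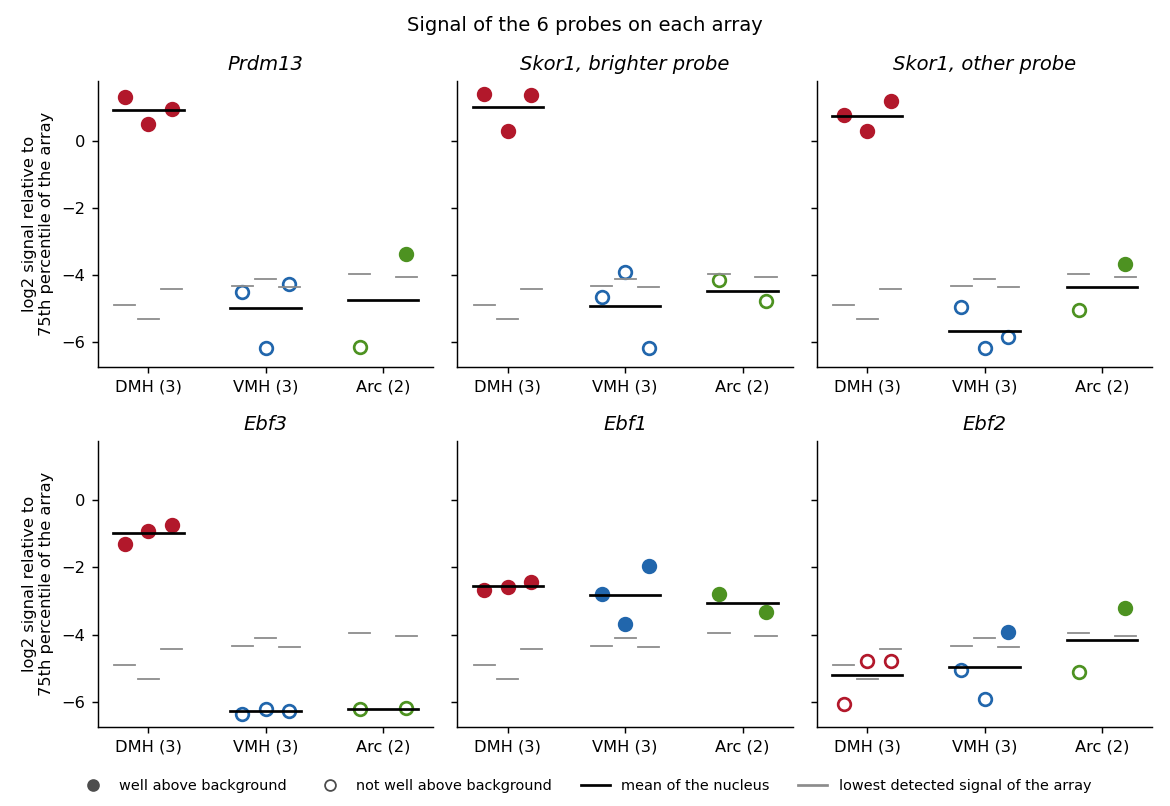
Level of each of the 6 probes on each array, as log2 signal relative to the array's 75th percentile, for DMH, VMH and Arc. Points are arrays, filled where the spot was well above background; black lines are means and grey ticks the lowest detected signal of that array. For Prdm13, both Skor1 probes and Ebf3 the 3 DMH points stand clear of the other 5, while the VMH points of Ebf1 span those of DMH and Arc and no DMH point of Ebf2 is filled.

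The mean of the DMH arrays minus the mean of the VMH and Arc means was 5.78 for Prdm13, 5.70 for Skor1, 5.26 for Ebf3 and 0.37 for Ebf1 on the log2 scale, against a median of -0.04 over the 27324 genes tested. Taken as lower bounds of the fold over that mean, Prdm13 was at least 29.2-fold higher, Skor1 at least 34.6-fold higher and Ebf3 at least 8.88-fold higher. On the log2 scale these bounds are 4.87, 5.11 and 3.15. They hold for the background correction used. With another correction (normexp) the differences fell below them, to 3.55 for Prdm13, 3.49 for Skor1 and 2.47 for Ebf3. In the fit of all 8 arrays with limma and Benjamini-Hochberg adjustment over all genes, 100 genes (0.366%) were called higher in DMH and 130 (0.476%) lower at an adjusted p under 0.05, and 3 of the 4 genes described here that passed the filter were among the 100. All 3 DMH arrays lay above all 5 others for 983 genes (3.6%), Prdm13, Skor1 and Ebf3 among them. The choice of the genes used this contrast, so nothing is read from these counts.

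**Figure D2:**
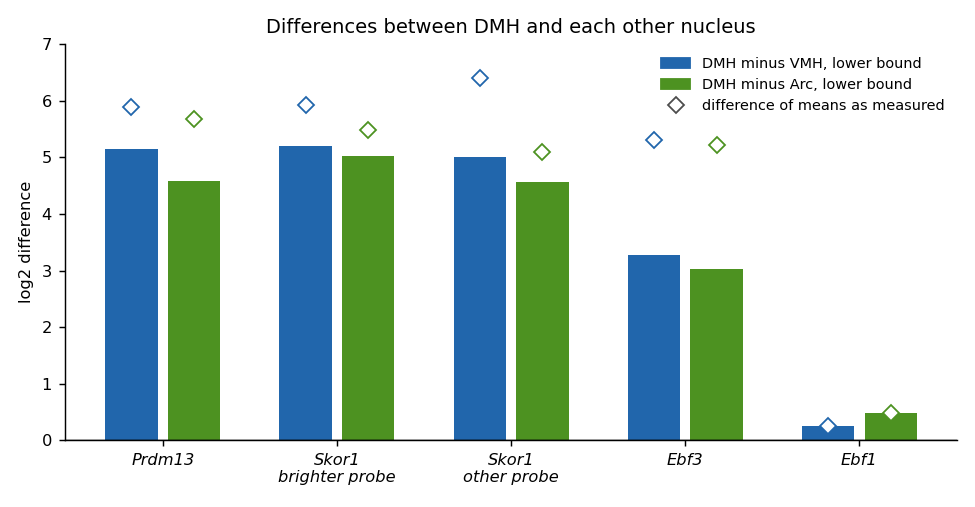
Log2 difference of DMH from VMH (blue) and from Arc (green) for the probes of Prdm13, Skor1, Ebf3 and Ebf1. Bars are lower bounds under the background correction used, with dim arrays at their lowest detected signal, and diamonds are differences of the means as measured. For Ebf3, whose other arrays are all surrogates, the bound (9.72-fold and 8.12-fold) falls furthest short of the measured difference, and for Ebf1 the bar and the diamond coincide.

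The bound depends on how bright each array was. On the DMH arrays the signal at the 75th percentile read 3042, 2319 and 2107, with 2036, 1866 and 1980 for VMH and 1818 and 1806 for Arc, so every DMH array was brighter than every VMH array and these were brighter than the Arc arrays. Between 72.4% and 78.7% of probes were well above background. The part of array brightness in these results was not tested. All arrays lie on the same slide in 2 rows, each row holding arrays of every nucleus.

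VMH minus Arc is the contrast that the choice of these genes did not use, and only Ebf1 can be tested in it. Prdm13, Skor1 and Ebf3 passed the filter through DMH and were at or near background in both VMH and Arc, so for them the contrast sets dim or surrogate values against each other. Over all genes, 181 (0.662%) were called higher in VMH and 87 (0.318%) lower at an adjusted p under 0.05. Ebf1 was not among them and differed by 0.23 (95% interval -0.84 to 1.29; limma, adjusted p = 0.869). The interval runs from lower to higher in VMH and does not show that the nuclei are alike. The differences of the dim values were -0.22 for Prdm13, -0.45 for Skor1 and -0.08 for Ebf3, and nothing is read from them. The sign for Prdm13 turned without VMH replicate 2 (0.37) or without Arc replicate 2 (1.16). Skor1 turned without VMH replicate 3 (0.18). Ebf1 turned without VMH replicate 3 (-0.20) or Arc replicate 2 (-0.04).

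The other Skor1 probe had a VMH minus Arc difference of -1.31, also between values at or near background in all but 1 array. The spot of Arc replicate 2 was the only one outside DMH that was well above background for this probe. Over the 100 genes called higher in DMH, 74 were well above background on Arc replicate 2, against 70 on Arc replicate 1 and 73, 70 and 76 on the VMH arrays. Of the DMH neuron markers with the largest differences, Grp, a bombesin-like peptide gene, and Cck were not well above background on Arc replicate 2 (-6.05 and -4.37). Trh and Ppp1r17 were (-1.77 and -2.07). On Arc replicate 1 the levels were -6.08 for Grp, -6.26 for Cck, -3.10 for Trh and -2.18 for Ppp1r17, with the same genes well above background.

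Across the 8 arrays the levels of Prdm13, Skor1 and Ebf3 ran together, with Pearson r of 0.891 for Prdm13 and Skor1, 0.949 for Prdm13 and Ebf3 and 0.968 for Skor1 and Ebf3. Ebf1 had r of 0.394 with Prdm13, 0.161 with Skor1 and 0.34 with Ebf3. These are descriptions over 8 arrays that hold surrogates and share the split into DMH and the other nuclei, which the choice of the genes used. Within DMH the genes did not keep one order of arrays: replicate 2 was lowest for Prdm13 and Skor1, while replicate 1 was lowest for Ebf3.

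The genes closest to each in pattern were taken as the 5 named genes with the highest Pearson r over the 8 arrays. For Prdm13 these were Lhfp (r = 0.983), the forkhead gene Foxd2 (0.978), Fam19a4, which encodes a secreted chemokine-like protein (0.974), the vasopressin receptor gene Avpr1b (0.972) and Cflar, a regulator of caspase-8 (0.970). Like Prdm13, Foxd2 was well above background on the 3 DMH arrays, on no VMH array and on Arc replicate 2 (-2.03). As Foxd2 was picked by its likeness over these same arrays, nothing is read from that. For Skor1 they were the tubulin gene Tuba8 (0.981), the mitochondrial exonuclease gene Mgme1 (0.977), the LIM-domain gene Fhl2 (0.972), Grp (0.972) and the opioid precursor gene Pdyn (0.970). For Ebf3 they were Mgme1 (0.991), Allc (0.985), Grp (0.983), Ppp1r17, an inhibitor of protein phosphatases that marks DMH neurons (0.968), and Gabrg3, a GABA-A receptor subunit gene (0.968). Mgme1 and Grp thus stood in the lists of both Skor1 and Ebf3.

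For Ebf1 the closest genes were Tdgf1 (0.951), Cmtm5 (0.948), C8g (0.947), Flad1 (0.933) and Scarletltr (0.926). VMH replicate 3 was the highest array for Ebf1. Lhfp differed between DMH and the mean of the other nuclei by 1.14 and Pdyn by 1.14, far less than the 5.78 of Prdm13 and the 5.70 of Skor1, because r measures shape and not size.

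**Figure D3:**
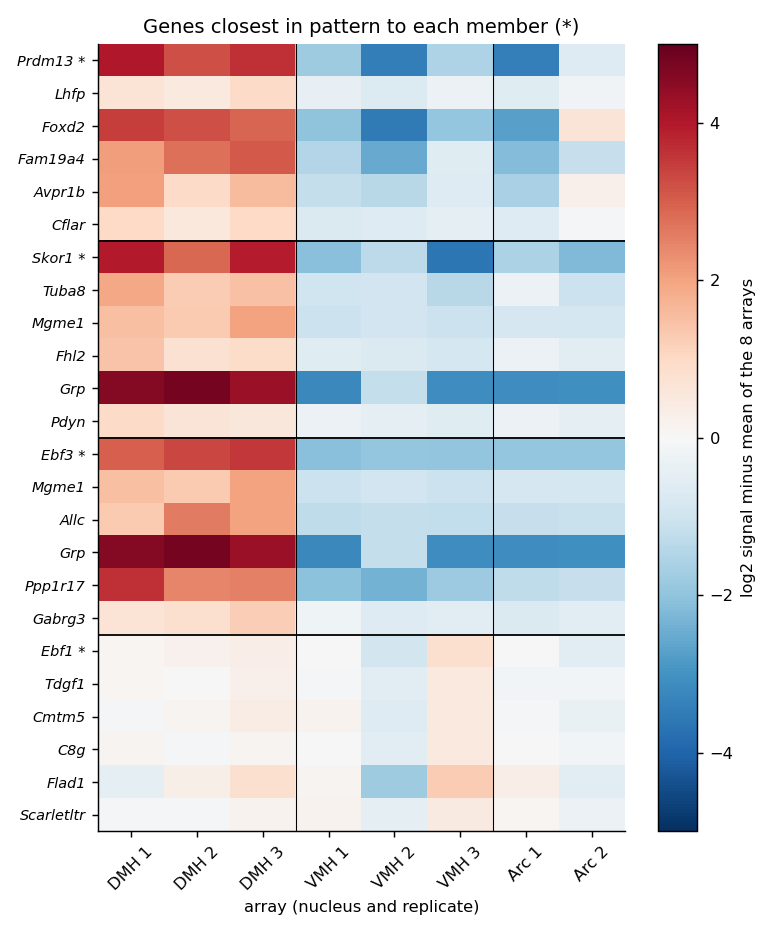
Log2 signal of Prdm13, Skor1, Ebf3 and Ebf1 (each marked by an asterisk) and of the 5 genes closest to each, centred on the mean of the 8 arrays (columns, DMH, VMH, Arc); red is above and blue below that mean, and dim spots are included at their surrogate or own value. The first 3 blocks are red on the 3 DMH arrays, and the Ebf1 block follows VMH replicate 3.

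The relatives of these genes were read against the shares of all genes called in DMH, 0.366% higher and 0.476% lower, by which lists this short would hold few calls or none. Of 14 other Prdm family genes 10 passed the filter, none was called higher or lower in DMH by limma (1 at an unadjusted p under 0.05, against 16.3% of all genes), and their median difference was 0.01. Prdm2 differed by 0.68 (limma, adjusted p = 0.47). Prdm12, which is known for its part in sensory neurons and in hypothalamic Pomc neurons of the mouse, had its highest levels in Arc: -2.91, -4.39 and -2.72 on the DMH arrays, -3.80, -3.87 and -2.92 in the VMH replicates and 1.32 and -0.39 in the Arc replicates. Both Arc arrays lay above all 6 others. DMH replicate 2 and VMH replicate 2 were not well above background, so Prdm12 passed the filter through Arc alone, where it was highest. Its VMH minus Arc difference was -4.00 on the log2 scale (limma, adjusted p = 0.0402). That test sets Arc against values that are dim in part, so nothing is read from its adjusted p. The difference in DMH was -1.81 (limma, adjusted p = 0.18). The other Prdm12 probe was well above background on Arc replicate 1 alone and did not pass the filter. The VMH call was lost without DMH replicates 1 or 3, any of the VMH replicates or Arc replicate 1 (adjusted p between 0.0673 and 0.13).

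Of 13 other genes of the Ski, Skor and Smad group, which carry or curb signals of the TGF-beta family, 8 passed the filter. None was called by limma in DMH (1 at an unadjusted p under 0.05, against 16.3% of all genes). Between VMH and Arc none was called either (2 at an unadjusted p under 0.05, against 14.2% of all genes). Their median DMH difference was 0.09. Skor2, the closest relative of Skor1, had levels of -3.47 ± 0.40 in DMH (SD, n = 3), -3.73 ± 0.69 in VMH (SD, n = 3) and -2.36 ± 1.07 in Arc (SD, n = 2), and its DMH difference was -0.42 (limma, adjusted p = 0.675). Ski differed by 0.08 and Skil by 0.14. Smad5 and Smad2 had the largest differences of this group, 0.71 each (limma, adjusted p = 0.322 and 0.286).

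Ebf4, the fourth Ebf gene, was well above background on all 8 arrays by both of its probes. The brighter probe read 0.99, 1.40 and 1.08 on the DMH arrays, -0.43, -0.24 and 0.40 in the VMH replicates and 1.79 and 1.59 in the Arc replicates, so that the 3 nuclei did not overlap and VMH was lowest. Ebf4 was lower in VMH than in Arc, with a difference of -1.77 (limma, adjusted p = 0.0402), and its DMH difference was 0.36 (limma, adjusted p = 0.49). The call was lost on leaving out any one array except VMH replicate 3 (adjusted p between 0.061 and 0.137). The probes disagreed on DMH: the other probe averaged 0.23 ± 0.39 in DMH and 0.23 ± 0.24 in VMH (SD, n = 3 each) and 1.59 ± 0.20 in Arc (SD, n = 2), so that DMH was level with VMH, and its VMH minus Arc difference was -1.36 (limma over probes, adjusted p = 0.105).

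Of the Ebf partners, Zfp423 differed by -0.40 in DMH (limma, adjusted p = 0.65), and Zfp521 did not pass the filter.

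**Figure D4:**
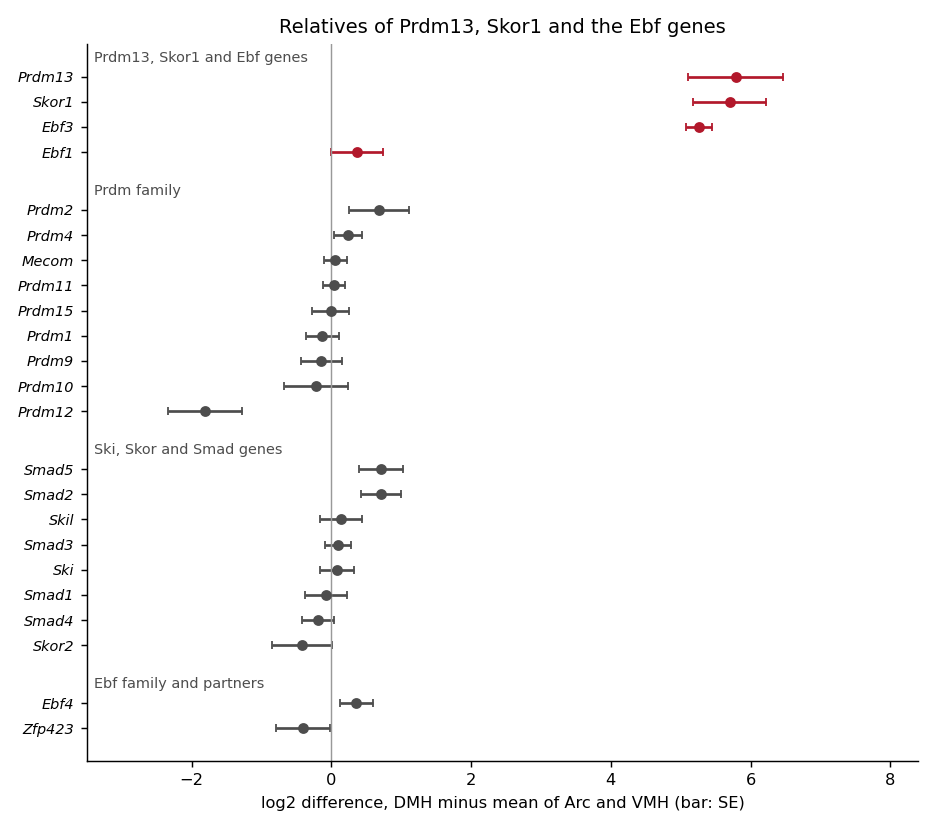
Log2 difference of DMH from the mean of Arc and VMH with its SE, for Prdm13, Skor1, Ebf3 and Ebf1 (red) and for relatives that passed the filter (grey), by family, without those not reported here. Prdm13, Skor1 and Ebf3 lie between 5.26 and 5.78, the highest relatives are at 0.71, and Prdm12 is lowest at -1.81.

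A list of 22 genes known to act upstream of, beside or below Prdm13 and Skor1 in the spinal cord and other tissues was set beside them. Of these 17 passed the filter, 1 was called higher and 1 lower in DMH, beside 0.366% and 0.476% of all genes, and the median difference was 0.01. Gad2, an enzyme of GABA synthesis, was higher by 2.00 (limma, adjusted p = 0.0243), with levels of 2.36, 1.43 and 1.72 on the DMH arrays, -1.76, -1.87 and -2.37 in the VMH replicates and 1.89 and 1.47 in the Arc replicates. The DMH and Arc arrays overlapped and both lay above VMH, so the difference of DMH was 3.84 from VMH and 0.15 from Arc. The Gad2 call was lost on leaving out any one DMH replicate or VMH replicates 2 or 3 (adjusted p between 0.0557 and 0.0823).

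Isl1, a LIM homeobox gene of Arc and motor neurons, was lower in DMH, with a difference of -1.96 (limma, adjusted p = 0.0379), a call lost on leaving out any one array (adjusted p between 0.0583 and 0.114). Ptf1a and Lbx1, which act with Prdm13 and Skor1 in development, were not called: Ptf1a differed by 0.01 (limma, adjusted p = 0.983) and Lbx1 by -1.02 (limma, adjusted p = 0.335). Ptf1a averaged -2.94 ± 0.17 in DMH (SD, n = 3), -3.04 ± 0.26 in VMH (SD, n = 3) and -2.87 ± 0.22 in Arc (SD, n = 2).

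Between VMH and Arc the same list had 1 gene called higher, Slc17a6 for glutamate transport (2.92; limma, adjusted p = 0.0121), and 3 called lower, Gad1 (-5.36; adjusted p = 0.0287), Gad2 (-3.68; adjusted p = 0.00494) and Slc32a1 (-3.09; adjusted p = 0.0277) for GABA synthesis and transport. The calls of Slc17a6 and Gad2 were kept on leaving out any one array. Gad1 lost its call without DMH replicate 2, VMH replicates 1 or 3 or either Arc replicate (adjusted p between 0.0567 and 0.105), and Slc32a1 without DMH replicates 1 or 3, VMH replicates 1 or 3 or either Arc replicate (adjusted p between 0.0541 and 0.107). Levels of Gad1 were 0.97 ± 1.21 in DMH (SD, n = 3), -4.15 ± 1.18 in VMH (SD, n = 3) and 1.21 ± 0.14 in Arc (SD, n = 2). Of the VMH arrays only replicate 2 (-2.84) was well above background for Gad1, and replicates 1 (-5.13) and 3 (-4.46) were dim. The size of its VMH minus Arc difference and its adjusted p therefore rest in part on dim values.

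The surroundings of the genes on the chromosome were read from other probes within 250 kb of their probes. There were 57 such probes, 39 of which passed the filter, 15 near Prdm13, 3 near Skor1, 2 near Ebf2, 19 near Ebf3 and none near Ebf1. In DMH limma called 1 higher and 0 lower (5 and 1 at an unadjusted p under 0.05, against 15.4% of all probes in either direction), beside 0.375% and 0.392% of all 41371 probes tested, and the median difference was -0.03, or 0.37 over the 18 tested probes within 100 kb. The probe called lies 92.9 kb from the Ebf3 probe on the same strand, at chr7:144478479-144478538 in mm9, and is named only by the expressed sequence tag AA536887. It read -2.28, -2.37 and -2.21 on the DMH arrays, -4.91, -6.10 and -4.37 in the VMH replicates and -6.09 and -5.23 in the Arc replicates, well above background on the DMH arrays alone. The difference was 3.10 (limma over probes, adjusted p = 0.0239), and AA536887 was at least 3.61-fold higher in DMH over the mean of the others. Fitted over genes, this call was lost on leaving out any one DMH replicate (adjusted p between 0.0802 and 0.0985). With normexp background correction the difference was 1.01, still called but below that bound, which is 1.85 on the log2 scale.

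Which transcript this tag belongs to was not worked out, so the tag may read Ebf3 itself, a gene chosen by its levels in this contrast. The tag passed the filter through DMH alone, and its adjusted p sets DMH against dim values. Between it and the Ebf3 probe lies the probe of Gm10578, on the opposite strand from both. No array had Gm10578 well above background, and nothing about the tag is read from that. Near Prdm13, 15 tested probes read Ccnc, the cyclin C gene, Tstd3, Sfrs18, 4930528A17Rik and long intergenic transcripts, and none was called. The largest differences there belonged to 2 intergenic probes on opposite strands, 1.68 (79.6 kb away and not well above background in VMH; limma over probes, adjusted p = 0.275) and 1.39 (81.8 kb away; adjusted p = 0.14), against -0.18 for Ccnc and 0.44 for Tstd3.

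**Figure D5:**
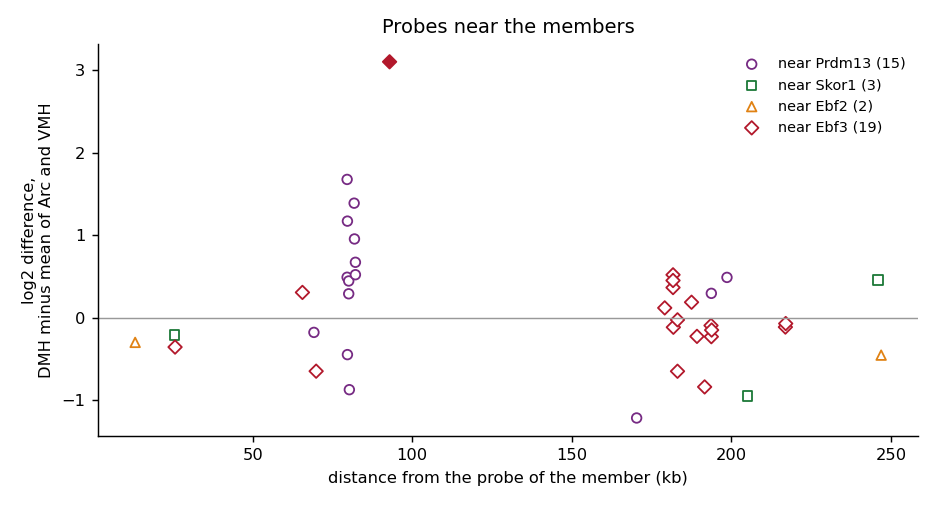
Log2 difference of DMH from the mean of Arc and VMH for 39 probes within 250 kb, against distance in kb from the probe of the named gene. Filled symbols are called at an adjusted p under 0.05. Only AA536887, 92.9 kb from the Ebf3 probe, is filled, at 3.10; the median of all 39 is -0.03.

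The promoters of the 3 genes set apart in DMH are shown from RefSeq on GRCm38.p6, as the 250 bases before the annotated start in the sense of the gene. Genes chosen for their DMH levels run together over these arrays by that choice, so nothing about shared control is read from the windows. For Skor1 the first of 3 windows is shown. Ebf2 was not matched. The motifs searched on both strands were these: CCCNNGGG (core of the Ebf motif), CANNTG (the E-box bound by helix-loop-helix factors), CAAGTG (core of the site of NK2 factors such as Nkx2-1, which is also a CANNTG) and CCAAT. Capitals mark matches.
Prdm13, chr4:21685964-21686213, minus strand: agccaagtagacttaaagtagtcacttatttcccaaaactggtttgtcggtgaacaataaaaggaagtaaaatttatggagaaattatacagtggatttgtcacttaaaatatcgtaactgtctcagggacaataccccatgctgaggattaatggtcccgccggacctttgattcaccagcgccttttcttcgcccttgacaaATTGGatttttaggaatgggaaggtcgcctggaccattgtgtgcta
Skor1, chr9:63148962-63149211, minus strand: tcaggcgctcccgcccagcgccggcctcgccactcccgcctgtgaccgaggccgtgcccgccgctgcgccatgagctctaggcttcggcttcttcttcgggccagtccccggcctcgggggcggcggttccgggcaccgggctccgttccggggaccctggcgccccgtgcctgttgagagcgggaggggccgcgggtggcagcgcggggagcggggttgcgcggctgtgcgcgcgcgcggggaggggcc
Ebf3, chr7:137314446-137314695, minus strand: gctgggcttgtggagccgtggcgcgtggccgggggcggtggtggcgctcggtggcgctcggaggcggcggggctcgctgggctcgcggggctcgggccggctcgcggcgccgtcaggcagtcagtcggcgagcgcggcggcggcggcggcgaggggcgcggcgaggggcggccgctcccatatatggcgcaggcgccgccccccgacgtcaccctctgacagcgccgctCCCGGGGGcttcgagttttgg
The Prdm13 window held 1 CCAAT, on the other strand, with its first base 46 before the start. The Ebf3 window held 1 match to CCCNNGGG, 21 before the start, and the Skor1 window held none of the motifs. Of all 32851 windows, 11.8% held CCCNNGGG, 66.2% CANNTG, 11.6% CAAGTG and 33.8% CCAAT. No motif was found in all 3 windows. They also differed in base composition, with 41.6% G and C for Prdm13, 78.8% for Skor1 and 80.0% for Ebf3, against a median of 52.4% over all windows. Of the 2 Ebf1 windows, 1 held CAAGTG, 108 before the start.

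The labelled nuclei were set beside lists of their markers. These lists were drawn up with earlier results of these data known, so the counts are no independent check. Of 12 DMH neuron markers 8 were called higher in DMH (limma, adjusted p under 0.05), beside 0.366% of all genes, and 2 had differences below 0, Lepr (-1.22; adjusted p = 0.257) and Lhx6 (-0.59; adjusted p = 0.189). Grp by 7.35, Cck by 6.87, Trh by 5.31 and Ppp1r17 by 4.50 had the largest differences, and Trh alone of these lost its call on leaving out any one DMH replicate (adjusted p between 0.051 and 0.0775). Grp was well above background on the DMH arrays alone, so it passed the filter through DMH and its test sets DMH against dim values. Of 15 Arc markers 7 were lower and of 13 VMH markers 3 were lower, with none higher, beside 0.476% of all genes lower. Summed levels of the DMH list were 7.17 to 7.51 in DMH, 7.08 to 7.33 in VMH and 7.63 to 7.70 in Arc, and its brightest probe, Lhx6, averaged 6.73 in DMH, 7.14 in VMH and 7.51 in Arc. Fezf1, which specifies VMH neurons, was not well above background on any DMH or Arc array. Of 11 markers of neighbouring nuclei 8 passed the filter and 1 was higher, Rorb, by 1.87 (limma, adjusted p = 0.0239). Rorb lost its call on leaving out any one DMH replicate, VMH replicates 2 or 3 or Arc replicate 1 (adjusted p between 0.0511 and 0.0981). With the mean of its probes in place of the brightest, its difference was 0.94 and it was not called (limma, adjusted p = 0.0867).

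None of the 7 general neuron markers was called in DMH by limma (2 at an unadjusted p under 0.05, against 16.3% of all genes), and their median difference was 0.04. Of the 7, 4 had differences above 0 and 3 below. Syt1, with the smallest p, differed by 0.70 (limma, adjusted p = 0.098) and averaged 3.00 in DMH, 3.05 in VMH and 1.55 in Arc. Their summed level was lower in every DMH array (7.34 to 7.64) than in VMH (7.66 to 7.96) and Arc (7.92 to 7.95). That sum leans to the brightest probe, Snap25, which had a difference of -0.50 (limma, adjusted p = 0.252).

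Of 9 tested astrocyte markers 8 had differences above 0 in DMH, with a median of 0.47 over the list, and 4 of these 8 had an unadjusted p under 0.05, where 16.3% of all genes had one in either direction. Of these 1 was called, Gjb6, a connexin gene (1.19; limma, adjusted p = 0.0353), lost on leaving out any one array except VMH replicate 3 (adjusted p between 0.0615 and 0.122). Slc1a3, a glutamate transporter gene, differed by 1.09 (limma, adjusted p = 0.135). The exception was Aldoc (-0.28), the brightest probe of the list, which weighs most in the summed level (5.61 to 5.91 in DMH, 5.78 to 6.09 in VMH, 5.71 to 5.90 in Arc).

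None of 9 oligodendrocyte, 10 microglial, 10 endothelial, 9 mural or 6 tanycyte and ependymal genes was called by limma. At an unadjusted p under 0.05 there were 0 oligodendrocyte, 4 microglial, 3 endothelial, 3 mural and 3 tanycyte and ependymal genes, against 16.3% of all genes in either direction. Of the microglial genes 5 had differences above 0 and 5 below, with a median of 0.15. Their summed level (6.81 to 7.23 in DMH, 7.32 to 7.56 in VMH, 7.73 to 7.93 in Arc) held Itgam as its brightest probe, which averaged 6.77 in DMH, 7.22 in VMH and 7.61 in Arc. Summed levels were 4.11 to 4.61 in DMH, 4.46 to 5.03 in VMH and 3.73 to 4.42 in Arc for oligodendrocytes, and 2.09 to 2.53 in DMH, 2.36 to 2.60 in VMH and 2.66 to 2.70 in Arc for endothelial cells. They were 1.94 to 2.21 in DMH, 2.19 to 2.56 in VMH and 2.39 to 2.81 in Arc for mural cells, and 1.15 to 1.63 in DMH, 1.53 to 2.05 in VMH and 1.21 to 1.33 in Arc for tanycytes and ependymal cells. Of the tanycyte and ependymal genes 1 had a difference above 0 and 5 below, with a median of -0.42. The 1 above 0 was Ccdc153, the brightest probe (0.72 in DMH, 0.48 in VMH, -0.19 in Arc). Vim and Nes, with the smallest p, were highest in Arc. Vim averaged -5.21 in DMH, -3.27 in VMH and -0.88 in Arc, and Nes -6.50, -4.98 and -3.60. On the DMH arrays Vim was well above background on 1 and Nes on 0. The part of other cells in the levels of Prdm13, Skor1 and Ebf3 was not tested.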

How the data were processed

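Total RNA of pooled, laser-dissected neurons was hybridised to 8 single-colour arrays (Cy5), 3 of DMH, 3 of VMH and 2 of Arc, per the labels. The deposited values are red-channel intensities per spot, with background subtracted and trends removed but no scaling between arrays, per the file headers, made with Agilent Feature Extraction 11.5.1.1, per the submitters' processing notes. A deposited table of values for the whole series, with 8 columns, runs in constant steps and was not used.

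Log2 intensity minus the 75th percentile of 59305 non-control spots was taken, outlier spots were left out, and repeated spots were averaged by probe. Probes had to be well above background throughout the arrays of 1 nucleus or more, and the brightest kept probe stood for its gene. Genes with a missing array were dropped, leaving 27324. Means per nucleus were fitted over the 8 arrays, using limma 3.58.1 (lmFit, eBayes) under R 4.3.3 and the data.table package, version 1.17.8, with 5 residual and 2.79 prior degrees of freedom, p-values adjusted by Benjamini-Hochberg per contrast and a call at 0.05. The residual SD had a median of 0.355 on the log2 scale. The number of arrays limits the precision. The fit was tested on simulated arrays.

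The genes described and all lists were chosen with earlier results of these data known. Named genes are the 5 genes, the 5 genes most correlated with each, up to 4 called genes per list (or 2 with the smallest p), and relatives. Further genes given by name because few were called, lie near a probe or were not called (AA536887, Gm10578, Ccnc, Tstd3, Sfrs18, 4930528A17Rik, Gad1, Slc17a6, Slc32a1, Ptf1a, Lbx1, Lepr, Lhx6, Snap25, Slc1a3, Aldoc, Itgam, Ccdc153) were chosen after their values were seen. Some results for list genes are not reported here. Alternatives were other background corrections, scalings, filters and models, a replicate block, a slide row block and each array left out.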

Additional observations from a re-analysis of the deposited data

How the results depend on the processing

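Differences of DMH from the mean of Arc and VMH kept their sign for Prdm13, Skor1, Ebf1 and Ebf3 under every alternative run. With normexp background correction they shrank to 3.55 for Prdm13, 3.49 for Skor1 and 2.47 for Ebf3, and with a floor at the lowest detected signal to 3.15 for Ebf3, since both settings raise dim values. With single arrays left out they ran from 5.09 to 6.48 for Prdm13, 5.38 to 6.06 for Skor1, 0.15 to 0.59 for Ebf1 and 5.13 to 5.42 for Ebf3. VMH minus Arc stayed short of the threshold for Ebf1 in all 20 alternatives, its sign turning with the replicate block (-0.018). The dim values of Ebf3 turned sign with normexp (0.0141) and quantile normalization (0.0288), from which nothing is read. Without single arrays it ran from -1.61 to 1.16 for Prdm13, -0.96 to 0.18 for Skor1, -0.20 to 0.66 for Ebf1 and -0.11 to -0.04 for Ebf3.

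Counts of called genes moved more. Genes called higher in DMH numbered 56 with no filter on dim probes, 56 with detection on at least 1 array, 27 with the replicate block and 36 with a slide row block, against 100. Genes called lower in DMH numbered 197 with normexp, 55 and 54 under those filters, 35 with the replicate block and 39 with the row, against 130. Genes called higher in VMH than in Arc numbered 111 and 115 under those filters, 286 with trended and robust eBayes, 53 with the replicate block, 113 with the row and 100 with only the VMH and Arc arrays, against 181, and genes called lower 151 with normexp, 53 and 56 under the filters, 37 with the block, 52 with the row and 46 with only those arrays, against 87. Without single arrays the counts ran from 24 to 116 and 20 to 177 for DMH, lowest without DMH replicate 1, and from 53 to 191 and 45 to 170 for VMH minus Arc, lowest without VMH replicate 3. DMH counts fell over 1.5 times without any DMH or VMH replicate. VMH minus Arc counts did so without DMH replicate 3 or any VMH replicate, and without Arc replicate 2 the lower count was 170.

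Same-numbered samples of different nuclei had correlated deviations (r from 0.072 to 0.185 in 7 pairs, against -0.126 to 0.0155 in 14 others), and 8 of 8 samples correlated best with their own number. These counts are not independent, because deviations were taken from the mean of each nucleus. The 2 Arc arrays therefore mirror each other (DMH replicate 1: 0.072 with Arc replicate 1 and -0.072 with Arc replicate 2). It is a weak hint from the data and not the design, as no label says that a number marks a shared animal. With the replicate block the DMH differences were 5.69 for Prdm13, 5.82 for Skor1, 0.25 for Ebf1 and 5.22 for Ebf3. Of the other genes named, the block ended the calls of AA536887 (adjusted p = 0.0721), Trh (0.0681), Isl1 (0.0681), Rorb (0.0614) and Gjb6 (0.0914) in DMH, and of Ebf4 (0.103) and Gad1 (0.113) in VMH minus Arc. The slide row block ended those of Gad2 (0.0559), Isl1, Rorb and Gjb6 in DMH and of Ebf4, Prdm12, Gad1 and Slc32a1 in VMH minus Arc. The 8 arrays and the spots at background limit what can be said of Prdm13, Skor1 and Ebf3 in VMH and Arc.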
